A study of Mus musculus with 12 samples.

Results

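Cell cycle genes were followed by phase in lung fibroblasts of mice with and without lung metastasis. The set was a fixed list of 41 genes, matched by symbol in a table of 20606 genes: 19 genes of replication licensing and S phase and 22 genes of G2 and mitosis. All 41 were in the table. Membership goes by known role and phase and not by a measured value, but the list was drawn up with earlier results of these data known. The study measured gene expression by bulk RNA sequencing in 2 purified fibroblast subgroups, to ask what each contributes to the growth of disseminated breast tumour cells in the lung. The 4 groups held 3 libraries each. M-MF and N-MF were matrix fibroblasts, from mice with lung metastasis and from normal mice. M-MyoF and N-MyoF were the subgroup the labels abbreviate MyoF, from mice with lung metastasis and from normal mice. The mouse strain, age and sex, the tumour cells, the time of sampling and the gates that separated MF from MyoF are not stated in the labels used here. Nor does any label say whether the 3 libraries of a group came from separate mice or from pools. The p-values therefore speak only of the spread among 3 libraries, and that spread may be technical.

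Dividing cells copy their DNA in S phase and separate it in mitosis, and the genes of each phase are switched on in turn. Before S phase, Cdc6 and Cdt1 load the ring of Mcm proteins onto replication origins, and E2F transcription factors, freed from the retinoblastoma protein by cyclin-dependent kinases, drive the genes of DNA synthesis. From G2 onwards, the MuvB complex with B-Myb and FoxM1 drives the cyclins, kinases and spindle proteins of mitosis, many through a promoter element called CHR together with CCAAT boxes. In the healthy adult lung most fibroblasts are resting, and their mitotic genes are nearly silent.

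Levels are given in FPKM, read fragments per transcript length and per sequenced total, as the authors deposited them; the read depth is unknown. FPKM summed to 528176 to 618478 per library, 11466 to 12682 genes reached 1 FPKM, and log2 values of libraries of the same group correlated at 0.998 to 0.999 across genes. Fibroblast markers (Col1a1, Col1a2, Col3a1, Pdgfra, Pdgfrb, Dcn, Lum and Thy1) were present in every group. They summed to 15310 to 15430 FPKM in M-MF libraries and 21050 to 21290 FPKM in N-MF libraries. In the other subgroup they summed to 2072 to 2096 FPKM in M-MyoF libraries and 3586 to 3642 FPKM in N-MyoF libraries. Tests were made with limma on log2(FPKM + 1) over 13300 genes, and a gene was called at a Benjamini-Hochberg adjusted p under 0.05. The all-gene median of the log2 change moved with the scaling, for M-MF against N-MF to 0.08 as deposited and -0.10 after quantile normalization. The share of called genes that were higher was 59.3% in M-MF against N-MF and 60.8% in M-MyoF against N-MyoF. With libraries rescaled to equal sums, by median ratios or by quantiles, it was 40.4% to 49.9% and 41.1% to 46%. Changes near 0 are therefore read beside those medians.

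Promoter sequences show how the phases differ apart from expression. RefSeq promoters (GRCm38.p6, 250 bases before the start to 50 after) were at hand for 33 of the 41 members, 35 promoters in all. The 5 below are shown for the following reasons. Ube2c and Cdk1 are mitotic genes with CHR elements, Mcm6 and Uhrf1 are the S phase genes with the largest change and carry E2F cores, and Ccne1 is the single member that fell in M-MyoF. They are Ube2c (chr2:164769679-164769958, plus strand), Cdk1 (chr10:69352883-69353162, minus strand), Mcm6 (chr1:128359676-128359955, minus strand), Uhrf1 (chr17:56303087-56303366, plus strand) and Ccne1 (chr7:38107461-38107740, minus strand). Each is printed 5′ to 3′ as 280 bases, 250 before the start and the first 30 from it. Capitals mark matches, on either strand, to the E2F core (TTCCCGC or TTGGCGC, read on the other strand as GCGGGAA or GCGCCAA), the CHR element (TTTGAA or TTCGAA, on the other strand TTCAAA or TTCGAA) and the CCAAT box (CCAAT, on the other strand ATTGG).
Ube2c: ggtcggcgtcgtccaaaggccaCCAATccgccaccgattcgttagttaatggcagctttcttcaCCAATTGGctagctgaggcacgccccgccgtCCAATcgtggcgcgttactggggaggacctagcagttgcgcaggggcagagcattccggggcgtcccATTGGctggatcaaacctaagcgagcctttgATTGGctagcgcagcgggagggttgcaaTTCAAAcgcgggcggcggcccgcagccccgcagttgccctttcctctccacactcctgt
Cdk1: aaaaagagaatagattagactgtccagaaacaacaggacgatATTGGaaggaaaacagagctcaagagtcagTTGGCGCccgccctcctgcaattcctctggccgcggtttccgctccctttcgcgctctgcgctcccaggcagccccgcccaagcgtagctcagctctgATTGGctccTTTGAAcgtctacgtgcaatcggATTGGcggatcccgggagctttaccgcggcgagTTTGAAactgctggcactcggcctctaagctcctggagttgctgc
Mcm6: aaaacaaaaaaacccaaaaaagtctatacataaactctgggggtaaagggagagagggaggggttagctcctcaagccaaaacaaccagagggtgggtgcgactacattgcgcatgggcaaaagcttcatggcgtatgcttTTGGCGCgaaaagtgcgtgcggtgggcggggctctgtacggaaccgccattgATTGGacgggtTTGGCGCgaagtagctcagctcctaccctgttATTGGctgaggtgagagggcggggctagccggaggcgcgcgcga
Uhrf1: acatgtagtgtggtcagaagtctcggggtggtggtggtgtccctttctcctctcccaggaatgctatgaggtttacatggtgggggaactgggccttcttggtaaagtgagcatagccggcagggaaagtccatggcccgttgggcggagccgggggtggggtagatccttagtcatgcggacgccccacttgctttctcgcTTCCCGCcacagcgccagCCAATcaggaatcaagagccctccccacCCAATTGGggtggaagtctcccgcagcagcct
Ccne1: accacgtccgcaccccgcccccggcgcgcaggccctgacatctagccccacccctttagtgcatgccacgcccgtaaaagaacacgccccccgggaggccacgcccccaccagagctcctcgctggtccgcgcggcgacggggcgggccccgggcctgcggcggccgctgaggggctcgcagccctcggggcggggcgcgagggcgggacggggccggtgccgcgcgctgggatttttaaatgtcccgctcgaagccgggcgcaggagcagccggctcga
In Ube2c the CHR match begins at position -29, counted from 0 at the start, and boxes of the CCAAT kind stand at -57 and -88 before it. Cdk1 has CHR matches at -15 and -71, CCAAT matches at -48, -80 and -208, and an E2F core at -178. Mcm6 has E2F cores at -46 and -109 and no CHR match. The printed Uhrf1 promoter has an E2F core at -48, and Ccne1 has no match to any of these motifs in the window. Another Uhrf1 promoter (chr17:56304063-56304362), not printed, has CCAAT matches at -107 and -150 and no E2F core. CCAATTGG in Ube2c and Uhrf1 is a CCAAT box on each strand, and an E2F core read GCGCCAA overlaps a CCAAT box where T follows it.

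Over the whole set, the CHR element was found in 13 of 17 promoters of G2 and mitosis members (76.5%) and in 3 of 18 promoters of S phase members (16.7%). It was in 14.4% of 13505 promoters of genes tested and in 19.2% of all 32851 promoters. The E2F core ran the other way, with 3 of 17 promoters of G2 and mitosis members (17.6%) and 10 of 18 of S phase members (55.6%), against 11.3% of promoters of genes tested and 6.81% of all promoters. A CCAAT box was in 15 of 17 promoters of G2 and mitosis members (88.2%), in 12 of 18 of S phase members (66.7%), and in 37.7% of promoters of genes tested. Both CHR and CCAAT were in 13 of 17 promoters of G2 and mitosis members, and in 6.06% of promoters of genes tested. With 150 instead of 250 bases before the start, the share with a CHR match was again 76.5% for G2 and mitosis members and 11.1% for S phase members. A match is a string of letters, and no binding was measured here.

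**Figure D1:**
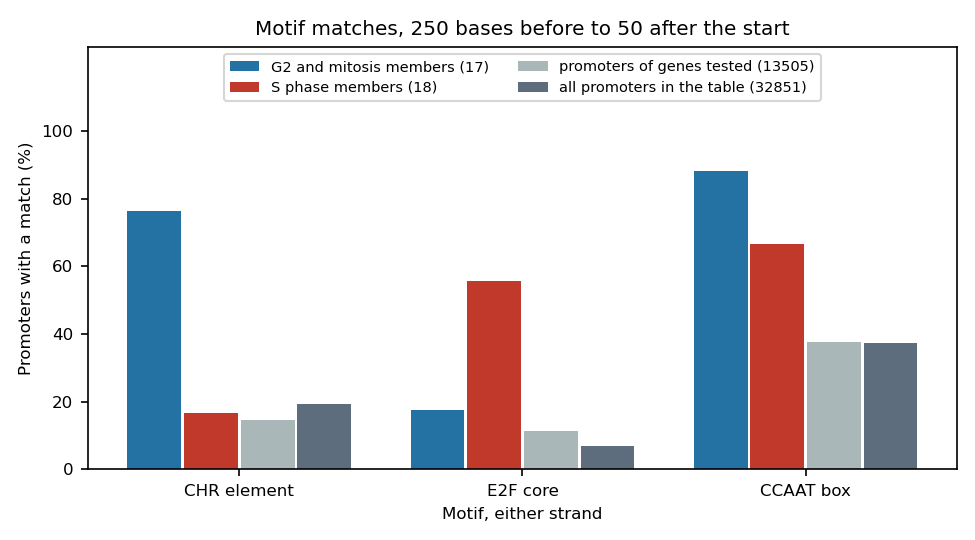
Share of promoters (y axis, percent) with a match to the CHR element, the E2F core or the CCAAT box on either strand, for promoters of S phase members, of G2 and mitosis members, of genes tested and of all genes in the RefSeq table. CHR matches stand in 76.5% of G2 and mitosis promoters and 16.7% of S phase promoters, and E2F cores in 17.6% and 55.6%.

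In matrix fibroblasts, cell cycle genes of every phase were higher in mice with metastasis, and the mitotic genes rose most. All 22 G2 and mitosis members and all 19 S phase members were called higher in M-MF than in N-MF, where 46.3% of the 13300 genes tested were called higher and 31.8% lower. Of the 41 members, 18 passed the filter only through metastasis libraries, so their calls in either subgroup are in part set by the filter. At 2-fold or more the counts were 22 of 22 G2 and mitosis members and 13 of 19 S phase members, beside 9.32% of all genes. The median log2 change was 3.30 for G2 and mitosis (1.38 to 5.34) and 1.26 for S phase (0.22 to 3.44), and 0.08 over all genes. For each of the 41 members every M-MF library was above every N-MF library, as was so for 47.1% of genes tested. In the MyoF subgroup, 22 of 22 G2 and mitosis members and 18 of 19 S phase members were called higher in M-MyoF than in N-MyoF, and 1 S phase member was called lower. Over all genes, 49.1% were called higher and 31.6% lower. At 2-fold or more, 22 G2 and mitosis members and 16 S phase members were higher, beside 11.4% of all genes. Every M-MyoF library was above every N-MyoF library for 40 members and below for 1 (49.9% and 32.3% of genes tested). Median log2 changes were 3.87 for G2 and mitosis, 2.02 for S phase and 0.11 over all genes. In bulk libraries, fewer cells of a kind and less RNA per cell cannot be told apart.

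**Figure D2:**
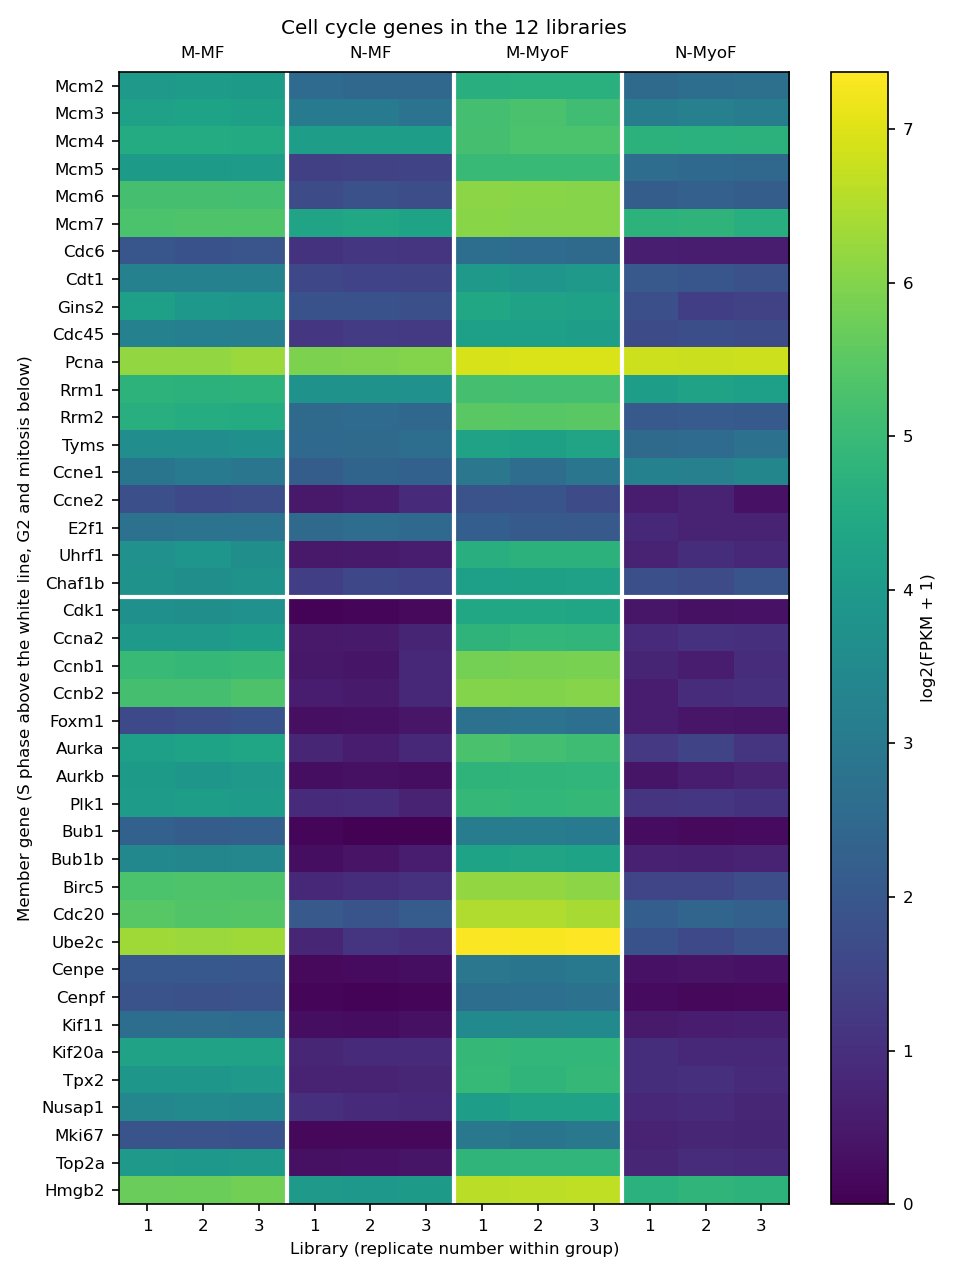
Levels of the 41 members (rows) as log2(FPKM + 1) in each of the 12 libraries (columns, by group), with S phase members above the white line and G2 and mitosis members below it. The G2 and mitosis rows are bright in the M-MF and M-MyoF libraries and near 0 in most N-MF and N-MyoF rows, while Pcna, Mcm4 and Mcm7 are bright in all 12 libraries.

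Summed over the 22 G2 and mitosis members, FPKM averaged 439.6 ± 7.63 in M-MF and 27.1 ± 1.76 in N-MF (SD, n = 3 each), a ratio of 16.2. The same sum was 839.3 ± 2.54 in M-MyoF and 46.8 ± 1.56 in N-MyoF, a ratio of 17.95. The mitotic programme was thus at a low level in each normal group and far above its spread in each metastasis group. Summed over the 19 S phase members, FPKM averaged 352.5 ± 0.702 in M-MF and 153.7 ± 2.20 in N-MF, a ratio of 2.29. The S phase sum was 586.7 ± 2.30 in M-MyoF and 229.9 ± 0.306 in N-MyoF, a ratio of 2.55. The balance between the phases moved with metastasis: the G2 and mitosis sum was 1.23 to 1.27 times the S phase sum in M-MF libraries and 0.166 to 0.190 times in N-MF libraries. It was 1.42 to 1.44 times in M-MyoF libraries and 0.196 to 0.209 times in N-MyoF libraries. Pcna alone made up a large share of the S phase sum in the normal groups, with 61.4 ± 1.66 FPKM in N-MF and 110.5 ± 0.847 FPKM in N-MyoF.

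**Figure D3:**
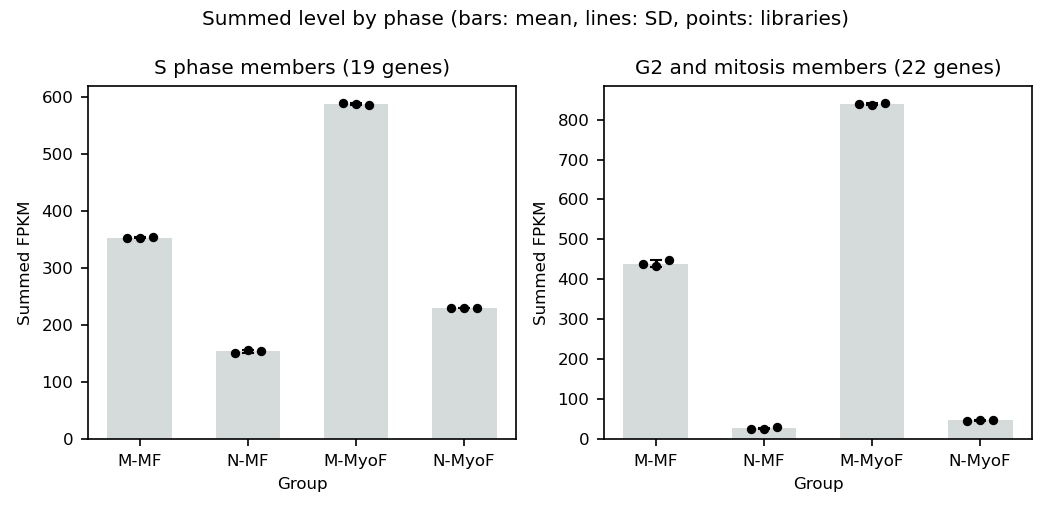
Summed FPKM of the 19 S phase members and of the 22 G2 and mitosis members in M-MF, N-MF, M-MyoF and N-MyoF; bars are means, lines SD and points the 3 libraries of a group. The G2 and mitosis sum stands at 439.6 in M-MF and 839.3 in M-MyoF, against 27.1 in N-MF and 46.8 in N-MyoF.

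Many mitotic members were scarcely measurable in normal mice. In all 6 normal libraries, 12 G2 and mitosis members (Cdk1, Ccnb1, Foxm1, Aurkb, Bub1, Bub1b, Cenpe, Cenpf, Kif11, Kif20a, Mki67 and Top2a) and 2 S phase members (Ccne2 and Uhrf1) stayed under 1 FPKM. All 41 members passed the filter of 1 FPKM in 3 libraries, but 18 of them reached it in fewer than 3 normal libraries and so passed only through the metastasis libraries: these 14 and Ccna2, Ccnb2, Tpx2 and Nusap1. The calls of those 18 are in part set by the filter. Within N-MF, 17 of the 22 G2 and mitosis members were under 1 FPKM in every library, and within N-MyoF 13 were. Mean levels of the 22 ran from 2.36 FPKM (Foxm1) to 77.9 FPKM (Ube2c) in M-MF and from 0.06 FPKM (Bub1) to 14.7 FPKM (Hmgb2) in N-MF. They ran from 5.55 FPKM (Cenpf) to 160.4 FPKM (Ube2c) in M-MyoF and from 0.133 FPKM (Cenpf) to 26.2 FPKM (Hmgb2) in N-MyoF. Ube2c stood at the top of the order and Hmgb2 was the single G2 and mitosis member with a substantial level in normal fibroblasts.

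Licensing genes, which prepare origins for replication, were higher in each metastasis group (8 of 8 in M-MF and 8 of 8 in M-MyoF). Mcm6, a subunit of the Mcm helicase (NCBI gene 17219, chr1:128331575-128359705), had 36.0, 35.8 and 35.2 FPKM in the M-MF libraries, against 2.23, 2.54 and 2.37 FPKM in the N-MF libraries. It had 67.5, 66.4 and 64.6 FPKM in the M-MyoF libraries, against 3.54, 3.78 and 3.54 FPKM in the N-MyoF libraries. Every metastasis library was many times above every normal library. Mcm6 rose by a log2 change of 3.44 (SE 0.0372, adjusted p = 5.23e-16) in M-MF and 3.86 (SE 0.0372, adjusted p = 1.88e-16) in M-MyoF, the largest change of the licensing genes in each subgroup. Mcm5, another subunit of the ring (NCBI gene 17218, chr8:75109468-75128439), had 15.1, 15.1 and 15.7 FPKM in the M-MF libraries, against 1.63, 1.75 and 1.87 FPKM in the N-MF libraries. Its values were 30.7, 31.1 and 30.4 FPKM in the M-MyoF libraries, against 5.23, 4.76 and 4.55 FPKM in the N-MyoF libraries. Groups did not overlap, and N-MyoF libraries were higher than N-MF libraries. Its log2 change was 2.57 (SE 0.0455, adjusted p = 3.61e-14) in M-MF and 2.44 (SE 0.0455, adjusted p = 5.32e-14) in M-MyoF. Subunits of the same ring did not move alike. Mcm4 averaged 22 ± 0.316 FPKM in M-MF and 16.5 ± 0.07 FPKM in N-MF, and 37.2 ± 1.22 FPKM in M-MyoF and 25.7 ± 0.373 FPKM in N-MyoF, with log2 changes of 0.39 and 0.52. Mcm2 rose by 1.54 in M-MF and 2.02 in M-MyoF, Mcm3 by 1.26 and 2.03, and Mcm7 by 1.01 and 1.31 on the log2 scale. In normal fibroblasts the 6 subunits were thus unequal, from 1.75 ± 0.12 FPKM (Mcm5) to 19 ± 0.787 FPKM (Mcm7) in N-MF.

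Of the loaders that place the ring, Cdc6 (NCBI gene 23834, chr11:98907709-98923942) had 2.89, 2.63 and 2.85 FPKM in the M-MF libraries, against 1.13, 1.25 and 1.22 FPKM in the N-MF libraries. Cdc6 had 5.34, 5.02 and 4.91 FPKM in the M-MyoF libraries, against 0.55, 0.48 and 0.47 FPKM in the N-MyoF libraries. The M-MyoF libraries were the highest and the N-MyoF libraries the lowest, with no overlap in either subgroup. The log2 change was 0.78 (SE 0.0477, adjusted p = 6.87e-09) in M-MF and 2.02 (SE 0.0477, adjusted p = 4.62e-13) in M-MyoF. Cdt1, its partner in loading, averaged 8.42 ± 0.0721 FPKM in M-MF and 1.89 ± 0.122 FPKM in N-MF, a log2 change of 1.71. It averaged 14.4 ± 0.783 FPKM in M-MyoF and 2.87 ± 0.309 FPKM in N-MyoF, a log2 change of 1.99.

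At the replication fork, 3 of 3 members were higher in each metastasis group, but Pcna by little. Gins2, a subunit of the GINS complex of the active helicase (NCBI gene 272551, chr8:120581266-120589075), had 16.8, 14.2 and 13.7 FPKM in the M-MF libraries, against 2.66, 2.59 and 2.51 FPKM in the N-MF libraries. Gins2 had 20.2, 18 and 17.8 FPKM in the M-MyoF libraries, against 2.46, 1.56 and 1.73 FPKM in the N-MyoF libraries. Libraries of M-MF and M-MyoF were all far above those of their normal groups. It rose by 2.14 (SE 0.101, adjusted p = 5.24e-10) in M-MF and 2.76 (SE 0.101, adjusted p = 3.37e-11) in M-MyoF. Cdc45, which joins the Mcm ring and GINS in that helicase, averaged 8.14 ± 0.299 FPKM in M-MF and 1.36 ± 0.115 FPKM in N-MF, and 16.7 ± 0.513 FPKM in M-MyoF and 2.31 ± 0.0851 FPKM in N-MyoF. Its log2 changes were 1.96 and 2.42. Pcna, the sliding clamp of the DNA polymerases, which also serves DNA repair (NCBI gene 18538, chr2:132249286-132253180), had 70.7, 71.8 and 76.2 FPKM in the M-MF libraries, against 59.9, 61.1 and 63.1 FPKM in the N-MF libraries. It had 120.3, 122 and 122 FPKM in the M-MyoF libraries, against 111, 109.6 and 111 FPKM in the N-MyoF libraries. The groups did not overlap, yet all 12 libraries were high and the subgroups stood further apart than metastasis and normal did. Its log2 change was 0.24 (SE 0.0281, adjusted p = 4.02e-06) in M-MF and 0.14 (SE 0.0281, adjusted p = 0.000551) in M-MyoF as deposited. The direction in M-MyoF turned to -0.05 with equal sums, -0.05 with median-ratio scaling and -0.18 with quantile normalization, and the change in M-MF was 0.01 (adjusted p = 0.884) with quantile normalization. RefSeq lists the pseudogenes Pcna-ps1 and Pcna-ps2, so reads could be split or lost between copies, and the value of Pcna is uncertain.

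Enzymes of nucleotide supply were higher in each metastasis group (3 of 3). Rrm2, the regulated subunit of ribonucleotide reductase, which makes deoxynucleotides (NCBI gene 20135, chr12:24708254-24714146), had 23.6, 22.9 and 22.2 FPKM in the M-MF libraries, against 4.89, 4.97 and 4.6 FPKM in the N-MF libraries. Rrm2 had 44.3, 42.9 and 44.1 FPKM in the M-MyoF libraries, against 3.19, 3.37 and 3.29 FPKM in the N-MyoF libraries. M-MyoF libraries were the highest and N-MyoF libraries the lowest, and no groups overlapped. The log2 change was 2.04 (SE 0.0353, adjusted p = 2.99e-14) in M-MF and 3.39 (SE 0.0353, adjusted p = 3.43e-16) in M-MyoF. Its large partner Rrm1 changed less: it averaged 25.9 ± 0.26 FPKM in M-MF and 12.7 ± 0.331 FPKM in N-MF, and 35.4 ± 0.329 FPKM in M-MyoF and 17.2 ± 0.819 FPKM in N-MyoF. The log2 changes of Rrm1 were 0.98 and 1. Tyms, thymidylate synthase, averaged 11.5 ± 0.469 FPKM in M-MF and 4.95 ± 0.327 FPKM in N-MF, and 17.9 ± 0.8 FPKM in M-MyoF and 5.23 ± 0.544 FPKM in N-MyoF, with log2 changes of 1.08 and 1.60. A pseudogene copy, Tyms-ps, makes its value uncertain.

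Among the regulators of the passage from G1 to S, Ccne1 and E2f1 responded differently in the subgroups. Ccne1, cyclin E1, a partner of Cdk2 (NCBI gene 12447, chr7:38097984-38107490), had 6.23, 7.14 and 6.37 FPKM in the M-MF libraries, against 3.53, 4.23 and 3.93 FPKM in the N-MF libraries. Ccne1 had 6.61, 5.2 and 6.5 FPKM in the M-MyoF libraries, against 8.42, 8.2 and 9.5 FPKM in the N-MyoF libraries. N-MyoF libraries were the highest of all and N-MF libraries the lowest, with the metastasis libraries between them. Ccne1 rose by 0.63 (SE 0.0845, adjusted p = 1.7e-05) in M-MF and its log2 change was -0.45 (SE 0.0845, adjusted p = 0.000278) in M-MyoF, the single member called lower with metastasis. E2f1, an activating E2F transcription factor (NCBI gene 13555, chr2:154559400-154569892), had 5.88, 5.97 and 5.98 FPKM in the M-MF libraries, against 4.91, 5.23 and 4.71 FPKM in the N-MF libraries. E2f1 had 3.57, 3.22 and 3.16 FPKM in the M-MyoF libraries, against 0.79, 0.66 and 0.68 FPKM in the N-MyoF libraries. The N-MF libraries were above those of M-MyoF, and the M-MF libraries were only slightly above N-MF. In N-MyoF it was under 1 FPKM. The log2 change was 0.22 (SE 0.05, adjusted p = 0.00123) in M-MF and 1.34 (SE 0.05, adjusted p = 4.36e-11) in M-MyoF; with quantile normalization the change in M-MF was 0.06 (adjusted p = 0.23). Ccne2, cyclin E2, averaged 2.31 ± 0.207 FPKM in M-MF and 0.597 ± 0.223 FPKM in N-MF, and 2.6 ± 0.277 FPKM in M-MyoF and 0.48 ± 0.19 FPKM in N-MyoF. Unlike Ccne1 it rose in each subgroup, by 1.06 in M-MF and 1.29 in M-MyoF on the log2 scale.

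Both members that copy chromatin behind the fork rose. Uhrf1, which brings the maintenance DNA methyltransferase to newly copied DNA (NCBI gene 18140, chr17:56303337-56323486), had 12.3, 13.6 and 11.8 FPKM in the M-MF libraries, against 0.42, 0.46 and 0.5 FPKM in the N-MF libraries. Uhrf1 had 24.1, 25.6 and 25.8 FPKM in the M-MyoF libraries, against 0.62, 0.97 and 0.78 FPKM in the N-MyoF libraries. Normal libraries were all under 1 FPKM. It rose by 3.22 (SE 0.0685, adjusted p = 2.03e-13) in M-MF and 3.87 (SE 0.0685, adjusted p = 3.39e-14) in M-MyoF. Chaf1b, a subunit of the chromatin assembly factor that lays down new histones (NCBI gene 110749, chr16:93883900-93906115), had 12.8, 11.7 and 12.5 FPKM in the M-MF libraries, against 1.59, 2.05 and 1.78 FPKM in the N-MF libraries. Chaf1b had 17.0, 17.4 and 17.7 FPKM in the M-MyoF libraries, against 2.45, 2.23 and 2.79 FPKM in the N-MyoF libraries. All metastasis libraries were above all normal libraries. Its log2 change was 2.25 (SE 0.0664, adjusted p = 4.81e-12) in M-MF and 2.40 (SE 0.0664, adjusted p = 2.06e-12) in M-MyoF.

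Mitotic cyclins and Cdk1, the kinase that they switch on to start mitosis, rose strongly (5 of 5 with Foxm1 in each subgroup). Ccnb1, cyclin B1 (NCBI gene 268697, chr13:100778739-100786486), had 30.0, 28.9 and 30.7 FPKM in the M-MF libraries, against 0.39, 0.34 and 0.81 FPKM in the N-MF libraries. Ccnb1 had 56.0, 57.4 and 58.6 FPKM in the M-MyoF libraries, against 0.7, 0.51 and 0.92 FPKM in the N-MyoF libraries. Normal libraries all stayed under 1 FPKM and did not separate by subgroup. It rose by 4.36 (SE 0.103, adjusted p = 5.65e-13) in M-MF and 5.10 (SE 0.103, adjusted p = 1.11e-13) in M-MyoF. Ccnb2, cyclin B2 (NCBI gene 12442, chr9:70407689-70421554), had 36.1, 35.8 and 38.9 FPKM in the M-MF libraries, against 0.5, 0.44 and 0.79 FPKM in the N-MF libraries. Ccnb2 had 63.8, 61.9 and 64.4 FPKM in the M-MyoF libraries, against 0.52, 0.92 and 1.02 FPKM in the N-MyoF libraries. Again each metastasis library was far above each normal library. It rose by 4.59 (SE 0.0985, adjusted p = 2.15e-13) in M-MF and 5.16 (SE 0.0985, adjusted p = 6.74e-14) in M-MyoF. RefSeq lists a pseudogene for each, Ccnb1-ps and Ccnb2-ps, so their values are uncertain. Cdk1 (NCBI gene 12534, chr10:69335146-69352912) had 12.1, 11.6 and 12.4 FPKM in the M-MF libraries, against 0.06, 0.1 and 0.14 FPKM in the N-MF libraries. It had 19.9, 20.5 and 19.3 FPKM in the M-MyoF libraries, against 0.37, 0.27 and 0.28 FPKM in the N-MyoF libraries. N-MF libraries were closest to 0. Cdk1 rose by 3.57 in M-MF and 4 in M-MyoF on the log2 scale, and Ccna2, cyclin A2, which acts in S phase and at mitotic entry, by 3.41 and 3.86.

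Foxm1, the transcription factor of the mitotic genes (NCBI gene 14235, chr6:128362994-128375886), had 2.08, 2.4 and 2.59 FPKM in the M-MF libraries, against 0.24, 0.26 and 0.37 FPKM in the N-MF libraries. Foxm1 had 5.73, 5.99 and 5.53 FPKM in the M-MyoF libraries, against 0.47, 0.36 and 0.34 FPKM in the N-MyoF libraries. Levels were low in every group, and metastasis and normal libraries did not overlap. Its change of 1.38 (SE 0.0653, adjusted p = 5.55e-10) in M-MF was the smallest among G2 and mitosis members on the log2(FPKM + 1) scale. The change was 2.28 (SE 0.0653, adjusted p = 2.9e-12) in M-MyoF. As plain ratios of mean FPKM in M-MF, Foxm1 rose 8.13-fold, and the smallest ratio was that of Hmgb2, 3.56-fold. Among the mitotic kinases and their partners 6 of 6 rose in each subgroup. Birc5, survivin, which anchors the chromosomal passenger complex and also inhibits apoptosis (NCBI gene 11799, chr11:117849237-117855743), had 37.7, 39.5 and 38.9 FPKM in the M-MF libraries, against 0.79, 0.95 and 1.09 FPKM in the N-MF libraries. Birc5 had 71.2, 71.0 and 67.6 FPKM in the M-MyoF libraries, against 1.93, 1.92 and 2.32 FPKM in the N-MyoF libraries. N-MyoF libraries were above N-MF libraries and both were far under the metastasis libraries. It rose by 4.36 (SE 0.0598, adjusted p = 3.56e-15) in M-MF and 4.54 (SE 0.0598, adjusted p = 2.61e-15) in M-MyoF. Aurkb, the kinase of that complex, averaged 14.7 ± 0.686 FPKM in M-MF and 0.227 ± 0.0289 FPKM in N-MF, and 27.4 ± 0.418 FPKM in M-MyoF and 0.493 ± 0.15 FPKM in N-MyoF. Aurka, which matures the spindle poles, averaged 18.2 ± 1.24 FPKM in M-MF and 0.67 ± 0.131 FPKM in N-MF, and 35 ± 2.02 FPKM in M-MyoF and 1.45 ± 0.363 FPKM in N-MyoF. Plk1, which acts from mitotic entry to cytokinesis, averaged 16 ± 0.353 FPKM in M-MF and 0.813 ± 0.127 FPKM in N-MF, and 28.9 ± 0.532 FPKM in M-MyoF and 1.19 ± 0.0764 FPKM in N-MyoF. In normal fibroblasts these kinases lay near or under 1 FPKM. They rose by log2 changes of 3.23 to 3.67 in M-MF and 3.77 to 4.25 in M-MyoF. The spindle checkpoint genes Bub1 and Bub1b rose by 2.16 and 2.99 in M-MF and by 2.87 and 3.61 in M-MyoF. As plain ratios of mean FPKM the order was the reverse, at 62.05-fold and 28.03-fold in M-MF and 45.05-fold and 30.87-fold in M-MyoF.

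Genes that work with the anaphase promoting complex, the ubiquitin ligase that ends mitosis, included the most abundant member in the metastasis groups. Ube2c, the ubiquitin-conjugating enzyme of that ligase (NCBI gene 68612, chr2:164769929-164772902), had 79.8, 75.6 and 78.2 FPKM in the M-MF libraries, against 0.72, 1.14 and 1.01 FPKM in the N-MF libraries. Ube2c had 159, 158 and 165 FPKM in the M-MyoF libraries, against 2.66, 2.09 and 2.58 FPKM in the N-MyoF libraries. The 3 M-MyoF libraries were highest, the 3 M-MF libraries lay between, and all normal libraries were low. It rose by 5.34 (SE 0.0755, adjusted p = 4.55e-15) in M-MF and 5.55 (SE 0.0755, adjusted p = 3.37e-15) in M-MyoF, the largest change of all members in each subgroup on the log2(FPKM + 1) scale. As plain ratios of mean FPKM, Ube2c rose 81.4-fold in M-MF and 65.7-fold in M-MyoF. The largest such ratios were 120.2-fold for Cdk1 in M-MF and 80.8-fold for Ccnb1 in M-MyoF. Cdc20, the activator of the complex, averaged 41.6 ± 1.17 FPKM in M-MF and 3.1 ± 0.335 FPKM in N-MF, and 87.4 ± 2.86 FPKM in M-MyoF and 3.89 ± 0.341 FPKM in N-MyoF. It rose by 3.38 and 4.18 on the log2 scale. All 6 spindle and kinetochore members rose in each subgroup. The motor Kif20a averaged 17.9 ± 0.115 FPKM in M-MF and 0.823 ± 0.0764 FPKM in N-MF, and 28.7 ± 0.475 FPKM in M-MyoF and 0.847 ± 0.0896 FPKM in N-MyoF. Tpx2, which activates Aurka at the spindle, averaged 14.2 ± 0.577 FPKM in M-MF and 0.667 ± 0.0635 FPKM in N-MF, and 28.7 ± 1.19 FPKM in M-MyoF and 0.96 ± 0.07 FPKM in N-MyoF. The other 4, the motors Kif11 and Cenpe, the kinetochore protein Cenpf and the microtubule binder Nusap1, rose by 1.76 (Cenpf) to 2.55 (Nusap1) in M-MF and 2.53 (Cenpf) to 3.38 (Nusap1) in M-MyoF. These are changes on the log2(FPKM + 1) scale. As plain ratios of mean FPKM, Cenpf rose most of the 4, 33.1-fold in M-MF and 41.6-fold in M-MyoF. Nusap1 rose 11.3-fold in M-MF and 22.3-fold in M-MyoF.

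Mki67, the proliferation marker Ki-67 that coats mitotic chromosomes (NCBI gene 17345, chr7:135689784-135716450), had 2.78, 2.72 and 2.63 FPKM in the M-MF libraries, against 0.12, 0.12 and 0.11 FPKM in the N-MF libraries. Mki67 had 6.68, 6.36 and 6.77 FPKM in the M-MyoF libraries, against 0.65, 0.72 and 0.7 FPKM in the N-MyoF libraries. It was low in FPKM even in the metastasis libraries, and no groups overlapped. It rose by 1.73 (SE 0.0413, adjusted p = 6.16e-13) in M-MF and 2.17 (SE 0.0413, adjusted p = 6.54e-14) in M-MyoF. Top2a, the topoisomerase that untangles sister chromatids, averaged 14.7 ± 0.253 FPKM in M-MF and 0.3 ± 0.0361 FPKM in N-MF, and 27.6 ± 0.264 FPKM in M-MyoF and 0.833 ± 0.0987 FPKM in N-MyoF, with log2 changes of 3.59 and 3.97. Hmgb2, a chromatin protein, averaged 52.4 ± 1.71 FPKM in M-MF and 14.7 ± 0.522 FPKM in N-MF, and 98.4 ± 1.59 FPKM in M-MyoF and 26.2 ± 0.891 FPKM in N-MyoF. It had the highest normal level of the 22 and the smallest ratio of FPKM, 3.56 in MF and 3.76 in MyoF.

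**Figure D4:**
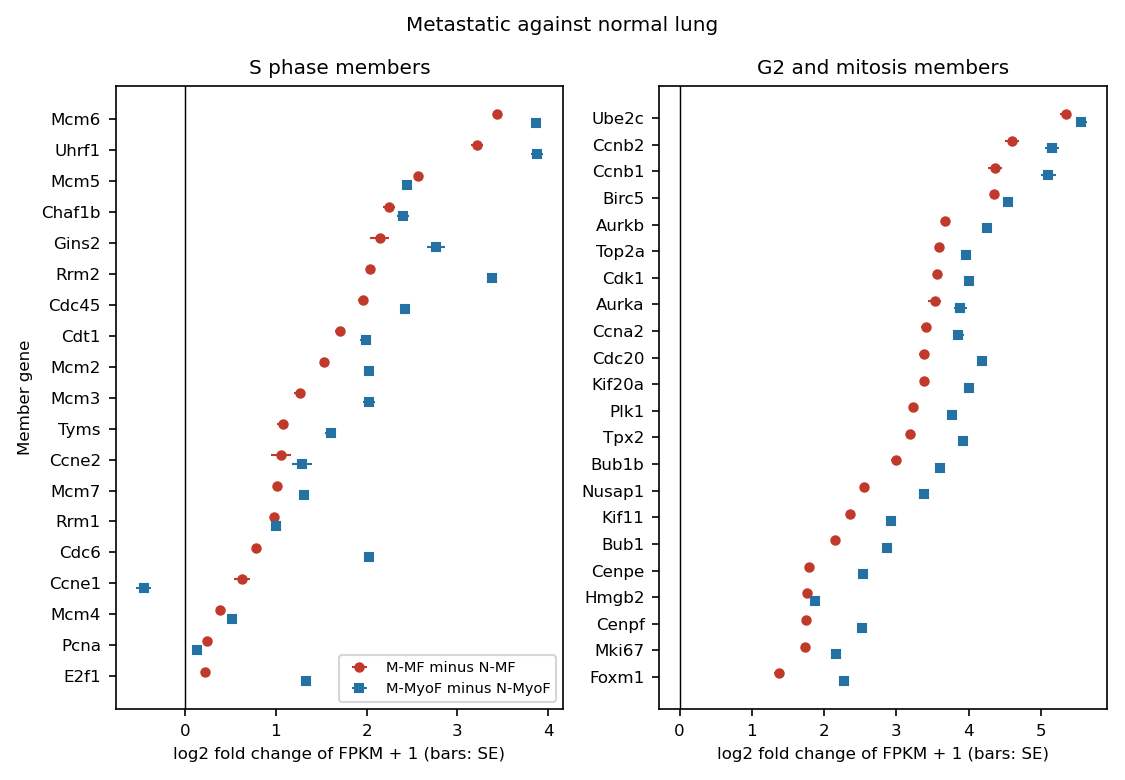
Log2 change on the log2(FPKM + 1) scale (x axis) of each member for M-MF against N-MF and M-MyoF against N-MyoF; points are the limma estimates and lines their SE. All G2 and mitosis members lie at 1.38 or more in MF and 1.87 or more in MyoF, and Ccne1 is positive in MF and negative in MyoF. Pcna, at 0.24 and 0.14, turned negative in MyoF under the 3 other scalings.

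Other genes of the pathway, outside the 41, were read from 10 lists with 152 genes, chosen with these data known. Genes of replication origins and forks were called higher for 31 of 34 in M-MF and 34 of 34 in M-MyoF, and those of nucleotide synthesis for 9 of 10 in each. Thymidine kinase Tk1 averaged 26.5 ± 0.636 FPKM in M-MF and 0.683 ± 0.21 FPKM in N-MF, and 50.3 ± 1.24 FPKM in M-MyoF and 1.32 ± 0.145 FPKM in N-MyoF. The reductase subunit Rrm2b, a target of p53, was lower in each subgroup, with log2 changes of -0.13 (adjusted p = 0.0345) and -0.31 (adjusted p = 7.5e-05). Kinetochore and checkpoint genes were called higher for 17 of 18 in M-MF and 18 of 18 in M-MyoF, and spindle and cytokinesis genes for 21 of 21 in each. Condensin, cohesin control and passenger genes were higher for 13 of 13 in each subgroup. Among mitotic entry genes 9 of 11 in M-MF and 10 of 11 in M-MyoF were called higher. The centromere histone Cenpa rose by 3.08 and 3.20 on the log2 scale, and the cytokinesis genes Prc1 and Anln by 3.6 and 2.89 in M-MF and 3.84 and 4.08 in M-MyoF. Subunits of the anaphase promoting complex and its regulators moved less, with 7 of 14 higher and 3 lower in M-MF, and 9 of 14 higher and 1 lower in M-MyoF. Over all genes 46.3% were higher and 31.8% lower in M-MF, and 49.1% and 31.6% in M-MyoF, so the counts of the anaphase promoting complex list lay near those of the whole table. The median log2 change of the lists ran from 0.06 for the anaphase promoting complex to 2.24 for spindle and cytokinesis in M-MF, and from 0.11 for the kinase inhibitors to 2.61 for spindle and cytokinesis in M-MyoF, beside 0.08 and 0.11 over all genes.

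Upstream of the members, the lists held genes that were higher and genes that were lower. Ccnd1, cyclin D1, which responds to growth signals in G1, averaged 53.5 ± 0.916 FPKM in M-MF and 2.81 ± 0.124 FPKM in N-MF, and 113 ± 1.20 FPKM in M-MyoF and 4.01 ± 0.0265 FPKM in N-MyoF. It rose by 3.84 (adjusted p = 2.08e-17) and 4.51 (adjusted p = 5.49e-18) on the log2 scale. Ccnd2, cyclin D2, averaged 15.3 ± 0.136 FPKM in M-MF and 32.1 ± 0.435 FPKM in N-MF, with a log2 change of -1.03, and -0.24 in MyoF. Ccnd3 went opposite ways, at -0.17 (adjusted p = 0.000126) in MF and 0.80 (adjusted p = 2.3e-11) in MyoF. Of the G1 cyclins and kinases 5 of 7 were called higher and 2 lower in M-MF, and 6 of 7 higher and 1 lower in M-MyoF. Of the inhibitors of these kinases, 6 of 7 were tested: 4 were higher and 2 lower in M-MF, and 3 higher and 2 lower in M-MyoF, beside the shares of all genes (46.3% higher and 31.8% lower in M-MF, 49.1% and 31.6% in M-MyoF). Cdkn1a, the p21 inhibitor, averaged 124 ± 1.68 FPKM in M-MF and 179 ± 4.36 FPKM in N-MF, and 328 ± 6.67 FPKM in M-MyoF and 705 ± 12.5 FPKM in N-MyoF. It was lower in each, by log2 changes of -0.52 and -1.10. Among pocket protein, E2F and MuvB genes 11 of 17 were higher and 4 lower in each subgroup. Rbl2, the p130 pocket protein of resting cells, was among those lower (-0.73 and -0.48), while E2f8 and the B-Myb gene Mybl2 were higher (1.82 and 1.34 in M-MF, 2.61 and 1.94 in M-MyoF).

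Markers of several other cell types moved with the metastasis groups, and their part in these changes was not tested. Counts of markers called stand beside 46.3% of all genes higher and 31.8% lower in M-MF, and 49.1% and 31.6% in M-MyoF. Neutrophil precursor markers, of cells that can divide, summed to 47.1 to 49.8 FPKM in M-MF libraries and 2.39 to 3.71 FPKM in N-MF libraries, where Mpo, Ctsg, Fcnb and Ltf were at or near 0. They summed to 1852 to 1890 FPKM in M-MyoF libraries and 18.8 to 20.5 FPKM in N-MyoF libraries, with 8 of 8 called higher in each subgroup. Most of the M-MyoF sum was Ngp (a mean of 1300 FPKM) and Camp (274 FPKM), genes of later precursors, while Mpo was at 5.68 FPKM and Elane at 5.66 FPKM. Mature neutrophil markers, led by S100a8, summed to 228 to 236 FPKM in M-MF libraries and 43.5 to 47.4 FPKM in N-MF libraries (7 of 9 higher). In the other subgroup they summed to 11740 to 12060 FPKM in M-MyoF libraries and 131 to 144 FPKM in N-MyoF libraries (9 of 9 higher). Carcinoma and epithelial markers summed to 343 to 351 FPKM in M-MF libraries and 24.1 to 25.1 FPKM in N-MF libraries, with 5 of 7 higher and 1 lower, and Krt14, Krt5 and Esrp1 at or near 0 in N-MF. They summed to 736 to 760.4 FPKM in M-MyoF libraries and 94.5 to 96 FPKM in N-MyoF libraries, with 4 of 7 higher and 2 lower, and Krt5 at or near 0 in M-MyoF. Krt8 and Krt18 led these sums. Krt14 averaged 8.61 FPKM in M-MF, and 16.8 FPKM in M-MyoF against 1.3 FPKM in N-MyoF. Cldn3 averaged 43.6 FPKM in M-MF and 8.54 FPKM in N-MF, and 28.8 FPKM in M-MyoF and 25.1 FPKM in N-MyoF. Epcam averaged 2.58 FPKM in M-MF and 1.91 FPKM in N-MF, and 6.15 FPKM in M-MyoF and 5.96 FPKM in N-MyoF. Cdh1 was lower with metastasis, at 1.5 FPKM in M-MF and 1.81 FPKM in N-MF, and 5.6 FPKM in M-MyoF and 7.14 FPKM in N-MyoF.

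Mesothelial markers summed to 409.9 to 420.1 FPKM in M-MF libraries and 56.5 to 57.7 FPKM in N-MF libraries, and to 298.5 to 306 FPKM in M-MyoF libraries and 167 to 171 FPKM in N-MyoF libraries. Of the 9 tested, 8 were called higher in each subgroup; Bnc1 and Muc16 were at or near 0 in N-MF. B and plasma cell markers summed to 31 to 32.2 FPKM in M-MF libraries and 3.16 to 3.47 FPKM in N-MF libraries, with 2 of 4 higher, and Ms4a1 at or near 0 in M-MF. They summed to 28.5 to 31.5 FPKM in M-MyoF libraries and 15 to 17.4 FPKM in N-MyoF libraries, with 2 of 4 higher and 1 lower. Endothelial markers were called higher for 4 of 6 and lower for 2 in M-MF, and higher for 3 and lower for 3 in M-MyoF. Macrophage markers were called higher for 0 of 6 and lower for 2 in M-MF, and higher for 0 of 6 and lower for 5 in M-MyoF. T and NK cell markers were higher for 0 and lower for 2 of 5 in M-MF, and higher for 1 and lower for 2 in M-MyoF. Pericyte markers were higher for 1 and lower for 4 of 6 in M-MF, and higher for 2 and lower for 3 in M-MyoF, and erythroid markers higher for 1 and lower for 1 of 4 in M-MF and lower for 3 of 4 in M-MyoF. Of the fibroblast markers 6 of 8 were lower and 2 higher in M-MF, and 4 of 8 lower and 1 higher in M-MyoF. The shares of all genes were 46.3% higher and 31.8% lower in M-MF, and 49.1% and 31.6% in M-MyoF.

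The response to metastasis was compared between the subgroups by the difference of the 2 log2 changes, MF minus MyoF. It was called below 0 for 19 of 22 G2 and mitosis members and 13 of 19 S phase members, and above 0 for 2 S phase members, beside 38% and 26.4% of all genes. The median difference was -0.57 for G2 and mitosis and -0.42 for S phase, and -0.06 over all genes. Members near 0 in normal libraries are compressed on the log2(FPKM + 1) scale, and with a pseudocount of 0.1 only 8 G2 and mitosis members were called below 0 and 2, Mki67 (0.61) and Top2a (0.32), were called above 0. Cdk1 and Aurka also turned positive, at 0.31 and 0.07, with no call. As plain ratios of mean FPKM, the 22 rose by a median of 27.6-fold in M-MF and 30.4-fold in M-MyoF. The number of mitotic genes with a difference thus depends on the pseudocount. Rrm2, E2f1 and Ccne1 were called in the same direction under every alternative that was run. The same held for the S phase members Mcm2, Mcm3, Mcm6, Mcm7, Gins2, Cdc45 and Tyms. Among mitotic members it held for Foxm1, Plk1, Cdc20, Cenpe, Cenpf, Kif20a, Tpx2 and Nusap1. Cdc6 also kept its call, except with the filter of 5 FPKM, which it did not pass.

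Rrm2 had the lowest difference, -1.35 (SE 0.0499, adjusted p = 1.92e-10). Cdc6 had -1.24 (SE 0.0674, adjusted p = 7.34e-09) and E2f1 -1.11 (SE 0.0708, adjusted p = 3.38e-08). All were higher in N-MF than in N-MyoF. Ccne1 had the highest difference, 1.09 (SE 0.12, adjusted p = 5.75e-06): it rose in M-MF and fell in M-MyoF. Pcna had 0.11 (SE 0.0397, adjusted p = 0.0338). Its call was lost, at 0.07 to 0.10, on leaving out any of M-MF replicate 3, N-MF replicates 1 or 2, M-MyoF replicate 1, or N-MyoF replicates 1 or 3. Aurka, at -0.36 (adjusted p = 0.0329), lost its call, at -0.36 to -0.27, on leaving out any of M-MF replicate 1, N-MF replicates 1 or 3, M-MyoF replicates 1 or 2, or N-MyoF replicates 1 or 3. Among members with no call, the difference was -0.02 (95% interval -0.12 to 0.08, adjusted p = 0.724) for Rrm1 and 0.13 (95% interval -0.01 to 0.27, adjusted p = 0.0999) for Mcm5. It was -0.15 (95% interval -0.35 to 0.05, adjusted p = 0.181) for Chaf1b and -0.23 (95% interval -0.56 to 0.11, adjusted p = 0.216) for Ccne2. For G2 and mitosis, Ube2c had -0.22 (95% interval -0.45 to 0.02, adjusted p = 0.095). Birc5 had -0.18 (SE 0.0845, adjusted p = 0.0737) and Hmgb2 -0.11 (SE 0.0474, adjusted p = 0.0638); with the replicate number as a block Hmgb2 was called (adjusted p = 0.0322). Mcm5 was called above 0 with equal sums (0.23), median ratios (0.25) and a pseudocount of 0.1 (0.42), and below 0 with a pseudocount of 5 (-0.27). Aurka was not called with equal sums (-0.25), median ratios (-0.19) or no filter on low values (-0.36). Mcm4, at -0.13, was not called under any of the other scalings (-0.07 to -0.04). Cdt1, at -0.29, was not called with equal sums (-0.20), median ratios (-0.18) or a pseudocount of 0.1 (-0.19), nor Uhrf1, at -0.66, with a pseudocount of 0.1 (-0.34). With quantiles and with a pseudocount of 5, calls below 0 were made for Ube2c (-0.46 and -0.68), Birc5 (-0.43 and -0.53) and Hmgb2 (-0.13 and -0.19), and with a pseudocount of 5 for Chaf1b (-0.23). Leaving out 1 library brought a call for Mcm5 (0.16 without N-MyoF replicate 3), for Ube2c (-0.31 without N-MF replicate 1), for Birc5 (-0.24 without N-MF replicate 1 and -0.25 without N-MyoF replicate 3) and for Hmgb2 (-0.13 without M-MF replicate 3, N-MF replicate 2 or N-MyoF replicate 2).

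Within mice with metastasis, cell cycle genes were lower in MF than in MyoF. All 22 G2 and mitosis members and 16 of 19 S phase members were called lower in M-MF than in M-MyoF, and 1 was called higher; over all genes 66% were called lower and 19.1% higher. The G2 and mitosis members moved together, with M-MF to M-MyoF ratios of mean FPKM between 0.410 (Foxm1) and 0.625 (Kif20a) and log2 changes of -1.05 to -0.65. The median was -0.87 for G2 and mitosis, -0.71 for S phase and -0.29 over all genes. For 38 of 41 members every M-MF library was below every M-MyoF library (66.2% of genes tested). E2f1 went the other way, with 5.88, 5.97 and 5.98 FPKM in the M-MF libraries, against 3.57, 3.22 and 3.16 FPKM in the M-MyoF libraries. Its log2 change was 0.69 (SE 0.05, adjusted p = 3.9e-08). Ccne1 and Ccne2 overlapped between the groups, with log2 changes of 0.10 (95% interval -0.09 to 0.28, adjusted p = 0.292) and -0.12 (95% interval -0.36 to 0.12, adjusted p = 0.321). Ccne1 was called higher with median ratios (0.32) and quantiles (0.42), and Ccne2 with quantiles (0.25). Across the 41 members, levels in M-MF and M-MyoF kept nearly the same order (Pearson r = 0.971, Spearman rho = 0.975, across genes, which are not independent replicates and share libraries). With other scalings, the split of all called genes moved to 29% to 47.3% higher, against 22.4% as deposited, while all 22 G2 and mitosis members were called lower with each. Gins2, at -0.31, lost its call without M-MF replicate 3 or without M-MyoF replicate 1 (-0.26 for each), and it was not called under any of the other scalings (-0.21 with equal sums, -0.06 with median ratios and -0.03 with quantiles).

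Within normal mice the members differed less. In N-MF, 16 of 22 G2 and mitosis members and 13 of 19 S phase members were called lower than in N-MyoF, beside 57.6% of all genes, and 4 S phase members were called higher, beside 24.5%. Every N-MF library was below every N-MyoF library for 29 of 41 members and above for 4, beside 57.8% and 24.6% of genes tested. The median log2 change was -0.26 for G2 and mitosis, -0.31 for S phase and -0.21 over all genes, so the members moved close to the whole table. With quantile normalization the all-gene median was 0.03 and 52.1% of called genes were higher in N-MF (29.8% as deposited). Then 5 G2 and mitosis members were called lower and 5 higher, so the direction of the mitotic genes between the normal groups rests on the scaling. The 4 members higher in N-MF were Cdc6, Gins2, Rrm2 and E2f1. E2f1 had 4.91, 5.23 and 4.71 FPKM in the N-MF libraries, against 0.79, 0.66 and 0.68 FPKM in the N-MyoF libraries. Cdc6 had 1.13, 1.25 and 1.22 FPKM in the N-MF libraries, against 0.55, 0.48 and 0.47 FPKM in the N-MyoF libraries. In both genes the groups stood apart with no overlap. Their log2 changes were 1.80 (SE 0.05, adjusted p = 1.89e-12) and 0.55 (SE 0.0477, adjusted p = 2.13e-07). Rrm2 had a log2 change of 0.44 (SE 0.0353, adjusted p = 9.64e-08), and Gins2 of 0.31 (SE 0.101, adjusted p = 0.0126), which was 0.22 (adjusted p = 0.0625) without N-MyoF replicate 2 and 0.14 (adjusted p = 0.0559) with a pseudocount of 5. Mcm5 lay lowest with -1.09 (SE 0.0455, adjusted p = 1.27e-10), ahead of Ccne1 with -0.99 (SE 0.0845, adjusted p = 1.98e-07) and Pcna with -0.84 (SE 0.0281, adjusted p = 1.28e-11). Mki67 and Ube2c were lower in N-MF by -0.60 and -0.82. Ccnb1 and Ccnb2 were not called (-0.18, adjusted p = 0.119, and -0.20, adjusted p = 0.0741), and were with the replicate number as a block (adjusted p = 0.0395 and 0.031). Ccnb1 was also called at -0.32 without N-MF replicate 3 and -0.27 without N-MyoF replicate 2, and Ccnb2 at -0.30 without N-MF replicate 3 and -0.33 without N-MyoF replicate 1. Mcm3 lost its call without N-MF replicate 3 (-0.11) or N-MyoF replicate 2 (-0.16), and Cenpe without N-MF replicate 1 (-0.12).

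**Figure D5:**
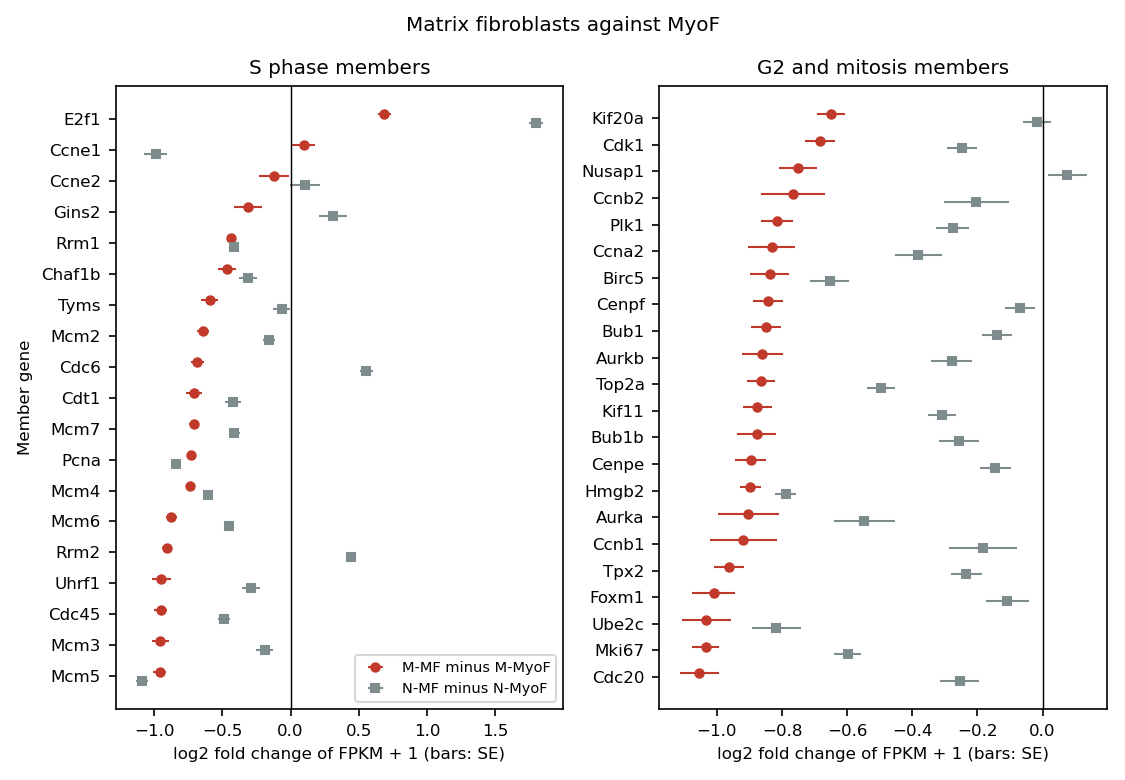
Log2 change on the log2(FPKM + 1) scale (x axis) of each member for M-MF against M-MyoF and N-MF against N-MyoF; points are the limma estimates and lines their SE. In mice with metastasis the G2 and mitosis members lie together between -1.05 and -0.65; in normal mice they lie closer to 0. With quantile normalization Ccna2, Foxm1, Aurkb, Plk1, Bub1b, Cdc20, Cenpe, Kif20a and Tpx2 were above 0 between the normal groups; E2f1 is positive in each comparison.

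The marker sums also differ between the subgroups. Within mice with metastasis, neutrophil precursor markers (8 of 8), mature neutrophil markers (9 of 9), pericyte markers (6 of 6) and endothelial markers (5 of 6) were called lower in M-MF than in M-MyoF, beside 66% of all genes. So were carcinoma and epithelial (6 of 7, 1 higher), macrophage (6 of 6), T and NK cell (5 of 5) and erythroid markers (4 of 4). B and plasma cell markers were lower for 3 of 4 and higher for 1. Mesothelial markers were higher for 7 of 9 and lower for 2, and fibroblast markers higher for 7 of 8 and lower for 1, beside 19.1% of all genes higher. Pericyte markers summed to 44.9 to 48.3 FPKM in M-MF libraries and 597 to 624 FPKM in M-MyoF libraries, and endothelial markers to 209.7 to 214 FPKM in M-MF libraries and 439 to 448 FPKM in M-MyoF libraries. Erythroid markers summed to 6.47 to 9.44 FPKM in M-MF libraries and 1088 to 2109 FPKM in M-MyoF libraries, and to 16.5 to 39.3 FPKM in N-MF libraries and 1991 to 3997 FPKM in N-MyoF libraries. Their part in the subgroup differences of cell cycle genes was not tested.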

How the data were processed

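Bulk RNA sequencing was done on 12 libraries in 4 groups of 3, grouped by sample titles. Trizol was used for extraction, SMART-SeqII for cDNA synthesis and preamplification, and a transposon method for the libraries, per the labels' protocols. The deposited values are FPKM, rounded by the authors to 2 decimals per the file itself, on GRCm38 per the submitters' processing notes; no source used here names the aligner, counting tool or annotation. Read depth is unknown, so precision rests on the spread between 3 libraries. The number of columns of no listed sample was 0.

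The log2(FPKM + 1) of 13300 genes that reached 1 FPKM in 3 or more libraries was fitted with limma 3.58.1 (statmod 1.5.0, R 4.3.3). A single model of 4 group means with a mean-variance trend gave 5 contrasts. P-values were adjusted by Benjamini-Hochberg over all genes tested and a gene was called under 0.05. The log2 scale with a pseudocount understates changes of low genes. The code was tested on simulated data. The members and lists were chosen with earlier results of these data known. Values per library are given for members with the 4 largest or 2 smallest changes in M-MF, the 2 largest in M-MyoF, those called against the majority of their phase, and Cdk1, which was added after values were seen.

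Over 1830 genes at 50 FPKM or more, deviations from the group mean correlated at 0.482 to 0.796 for 18 pairs that shared a number and -0.683 to 0.38 for the 36 other pairs, and 12 of 12 libraries were closest to their own number. The numbers were therefore used as a block in an alternative fit; what they mark is not stated. RefSeq positions and promoters (GRCm38.p6) were joined by NCBI gene number. Software for tables and figures was Python 3.11.15 with matplotlib 3.10.9, numpy 2.4.6 and pandas 2.3.3. The alternatives were other pseudocounts (0.1, 5), other filters (none, 5 FPKM), 3 other scalings (by equal sums, median ratios or quantiles), a fit on the compared groups, no variance trend, the block, a threshold of 0.01, and libraries left out. A listed marker gene is not reported here.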

Additional observations from a re-analysis of the deposited data

Results flagged for a closer look

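The change with metastasis differed between MF and MyoF for 34 of the 41 members, by a limma test of the difference itself (MF minus MyoF, log2 scale, Benjamini-Hochberg adjusted p under 0.05), where 38% of all genes had a difference below 0 and 26.4% above. Above 0 were Ccne1 (1.09) and Pcna (0.11). Among S phase members below 0, Rrm2 (-1.35), Cdc6 (-1.24) and E2f1 (-1.11) lay farthest. Mcm3 (-0.76), Uhrf1 (-0.66), Gins2 (-0.62), Tyms (-0.53), Mcm2 (-0.49), Cdc45 (-0.46) and Mcm6 (-0.42) followed, and Mcm7 (-0.3), Cdt1 (-0.29) and Mcm4 (-0.13) were closest to 0. Among G2 and mitosis members, Foxm1 (-0.9), Nusap1 (-0.83), Cdc20 (-0.8), Cenpf (-0.77), Cenpe (-0.75), Ccnb1 (-0.74), Tpx2 (-0.73) and Bub1 (-0.71) lay farthest from 0. Kif20a (-0.63), Bub1b (-0.62), Aurkb (-0.58), Kif11 (-0.57), Ccnb2 (-0.56) and Plk1 (-0.54) came next. Ccna2 (-0.45), Mki67 (-0.44), Cdk1 (-0.43), Top2a (-0.37) and Aurka (-0.36) were the smallest. These values are tied in part to the pseudocount of 1. With 0.1, 8 rather than 19 G2 and mitosis members were called below 0, and Mki67 (0.61) and Top2a (0.32) were called above 0. Cdk1 (0.31) and Aurka (0.07) turned positive with no call, and Uhrf1 (-0.34) and Cdt1 (-0.19) were not called. Cdt1 was also not called with equal sums (-0.20) or median ratios (-0.18), Aurka with equal sums (-0.25) or median ratios (-0.19), and Mcm4 under any of the 3 other scalings (-0.07 to -0.04).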

How the results depend on the processing

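Of 4869 member values under alternatives, 4744 were counted as unchanged, 68 lost the call, 33 gained it and 24 turned direction with a call in either fit. Any value that turned direction with no call in either fit was counted as unchanged. The cause of the changes was not tested. With a pseudocount of 5, 8 rather than 13 S phase members were at least 2-fold higher in M-MF; with 0.1, the difference of effects was above 0 for 2 and below 0 for 8 G2 and mitosis members (0 and 19). S phase members with a difference above 0 numbered 1 without a variance trend, 1 at a threshold of 0.01 and 1 to 2 with a library left out (2), and 3 with a pseudocount of 0.1, equal sums or median ratios, where Mcm5 gained a call. With quantile normalization 2 S phase members (1) were lower in M-MyoF than N-MyoF. In N-MF against N-MyoF it gave 7 S phase members higher (4) and 8 lower (13), and 5 G2 and mitosis members higher (0) and 5 lower (16); median-ratio scaling gave 1 G2 and mitosis member higher. In M-MF against M-MyoF, S phase members higher numbered 2 with median-ratio scaling and 3 with quantiles (1). Summed FPKM under equal sums, median ratios and quantiles, in that order, were 347.5, 365.8 and 351.1 for S phase in M-MF, 163.6, 174.3 and 179.4 in N-MF, 537.7, 506.7 and 502.4 in M-MyoF, and 240.7, 226.5 and 238.5 in N-MyoF. For G2 and mitosis they were 28.89, 30.77 and 34.69 in N-MF, and 769.2, 724.8 and 723.4 in M-MyoF; in M-MF the median-ratio value was 456.2, and in N-MyoF the equal-sums value was 48.94. Turned values were, for M-MyoF against N-MyoF, Pcna (-0.0516 with equal sums, -0.0496 with median ratios, -0.18 with quantiles). For the difference of effects they were Mcm5 (-0.27, pseudocount 5), and Cdk1 (0.31), Aurka (0.0654), Mki67 (0.61) and Top2a (0.32, pseudocount 0.1). For N-MF against N-MyoF they were Mcm2 (0.0142 with median ratios, 0.15 with quantiles) and, with quantiles, Mcm3 (0.0752), Tyms (0.24), Uhrf1 (0.10), Chaf1b (0.0454), Ccna2 (0.0385), Foxm1 (0.19), Aurkb (0.0283), Plk1 (0.13), Bub1b (0.0873), Cdc20 (0.0749), Cenpe (0.10), Kif20a (0.36) and Tpx2 (0.18). For M-MF against M-MyoF it was Ccne2 (0.25, quantiles). The replicate block changed the calls of Hmgb2 (difference -0.11), Ccnb1 (-0.18) and Ccnb2 (-0.20, both N-MF against N-MyoF) and no other member's call. Leaving out libraries 3 of all groups ended calls for Mcm2, Gins2 and Bub1 in N-MF against N-MyoF, Gins2 in M-MF against M-MyoF, and Mcm4, Cdt1 and Aurka in the difference. FPKM hold no depth, so values near 0 in normal libraries carry an unknown counting error.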
